A study of Mus musculus with 4 samples.

Results

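In all, 10 genes of pericellular proteolysis were followed across 4 spatially profiled sections of mouse pancreas with caerulein-induced acute pancreatitis. They were chosen by name: the matrix metalloproteinases Mmp7, Mmp2 and Mmp14, the tissue inhibitors Timp1, Timp2 and Timp3, the urokinase gene Plau with its receptor Plaur, and the sheddases Adam10 and Adam17. All 10 were found, with at least 43 UMIs in every section, among 32285 genes in the files. Genes of the olfactory receptor family, named Olfr, served as the level that the assay gives for genes not known to act in pancreas. Of 1135 such genes, 1107 had at least 1 UMI in the 4 sections together.

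Matrix metalloproteinases are secreted or membrane-bound enzymes that cut extracellular matrix and cell-surface proteins, and the Timps bind and block them. Urokinase converts plasminogen to plasmin at the surface of cells that carry its receptor. Adam10 and Adam17 release the outer parts of membrane proteins such as Notch, Tnf and ligands of the Egf receptor. In the injured pancreas, these genes are known from acinar cells that take on duct-like features and from the stroma that forms around them.

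Both genotypes carried Pdx1-Cre, a transgene that drives recombination in the pancreatic epithelium, on C57Bl/6. The groups were Ehmt2 +/+ and Ehmt2 fl/fl. In the latter, the floxed histone methyltransferase gene Ehmt2 is inactivated where Cre is expressed and not in stroma or immune cells. Each group had 2 sections, taken here as 1 section per mouse, since the labels do not name the mice. The mice were fasted for 12 h and received caerulein, a cholecystokinin analogue, at 50 μg/kg in 8 hourly injections. They were collected 18 h after the first dose, at 4 weeks of age as the study's methods state. No section of a saline-treated mouse was analysed here.

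In the CytAssist Visium assay, probe pairs bound to the RNA of a fixed section are moved onto a slide of barcoded spots, and a unique molecular identifier (UMI) keeps any molecule from being counted again. A spot can hold several cells of different types, so fewer cells of a type and less RNA per cell cannot be told apart. Spots with at least 500 UMIs numbered 6144 and 7871 for Ehmt2 +/+ (replicates 1 and 2) and 6483 and 6462 for Ehmt2 fl/fl (replicates 1 and 2), all groups being named by their labels. Their summed UMIs ranged from 6643747 to 43784930 per section, with Ehmt2 +/+ replicate 1 apart from the rest at a median of 6328 UMIs per spot against 874 to 1113. Digestive enzyme genes took 65.9% and 54.9% of UMIs in the Ehmt2 +/+ sections and 23.0% and 22.3% in the Ehmt2 fl/fl sections. The 8 acinar marker genes, all above the level of Olfr genes in every section, summed to a lower level in both Ehmt2 fl/fl sections. Some digestive enzyme genes outside these 8 went the other way, with a larger share of UMIs in both Ehmt2 fl/fl sections. Levels of Ehmt2 itself overlapped between the groups, at 19.8, 3.95, 10.1 and 12.1 CPM (UMIs of a gene per 1000000 UMIs of all genes in the spots used) in the order above, so that these counts do not check the labels. The Y-linked genes Ddx3y, Uty, Kdm5d and Eif2s3y had 0 or 1 UMI in each Ehmt2 +/+ section and 33 to 139 in each Ehmt2 fl/fl section, so that sex and genotype cannot be told apart. Each of the 2 slides held 1 section of each genotype, while the position on the slide differed between genotypes and cannot be told apart from it.

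The level of Olfr genes differed widely between sections and is given here because it is the floor against which the 10 genes are read. Its median was 0.251 and 4.97 CPM in the Ehmt2 +/+ sections and 8.28 and 12.6 in the Ehmt2 fl/fl sections. The 95th percentile was 0.571, 8.67, 16.7 and 21.3 CPM in the same order. Of 17994 genes with at least 10 UMIs in every section, 92.7% had a higher CPM in both Ehmt2 fl/fl sections than in both Ehmt2 +/+ sections. Of the 10 genes, 9 followed that pattern, a count near this background. When each gene was divided by its section's Olfr median, 2.11% of the 17994 genes were higher in both Ehmt2 fl/fl sections and 30.2% were lower. By that scale Mmp7 was the 1 gene of the 10 that was higher in both Ehmt2 fl/fl sections, and Adam10 the 1 that was lower.

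Sequence upstream of the transcription start is shown for Mmp7, Plaur and Timp3, the 3 genes with the highest fold changes between the genotypes. It was taken from the RefSeq table of GRCm38.p6, where 8 of the 10 genes had an entry and Mmp2 and Plau did not, and bases that an annotated exon covers were cut off. Capitals mark TGANTCA, the motif that AP-1 (Fos and Jun) proteins bind, which reads the same on both strands.
Mmp7, chr9:7691840-7692089, plus strand: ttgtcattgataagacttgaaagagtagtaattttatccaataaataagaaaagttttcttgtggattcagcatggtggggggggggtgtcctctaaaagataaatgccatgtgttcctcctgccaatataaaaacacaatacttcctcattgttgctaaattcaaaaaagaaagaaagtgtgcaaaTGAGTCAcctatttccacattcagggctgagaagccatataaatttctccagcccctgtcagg
Plaur, chr7:24462233-24462482, plus strand: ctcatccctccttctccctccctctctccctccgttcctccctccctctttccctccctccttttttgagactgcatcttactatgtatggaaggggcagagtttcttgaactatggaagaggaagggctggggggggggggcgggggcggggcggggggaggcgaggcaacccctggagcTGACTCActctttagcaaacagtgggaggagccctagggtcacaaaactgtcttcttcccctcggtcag
Timp3, chr10:86300162-86300371, plus strand: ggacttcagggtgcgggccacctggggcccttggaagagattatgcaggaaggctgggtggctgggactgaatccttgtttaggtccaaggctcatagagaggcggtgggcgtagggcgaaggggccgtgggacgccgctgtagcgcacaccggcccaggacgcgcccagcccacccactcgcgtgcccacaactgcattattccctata
The motif began 63 bases before the start of Mmp7 and 69 bases before that of Plaur. It was in 2 of the 9 windows of 250 bases that the 8 genes have, as Mmp7 has a second listed start without a match, and in 6.75% of all 32851 windows of the table. The whole window of Timp3, 250 bases before the cut, had no match and held 18 CpG dinucleotides, against 0 in the Mmp7 window shown and a median of 6 over all windows. The window of Plaur lies within the span annotated for that gene. These matches describe the letters only.

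Mmp7 (ENSMUSG00000018623, chr9:7692090-7699585), the small metalloproteinase matrilysin of injured epithelium, had the largest fold change of the 10 between the genotypes. It had 2.81 and 14.7 CPM in the Ehmt2 +/+ sections, replicates 1 and 2, and 463 and 526 in the Ehmt2 fl/fl sections, replicates 1 and 2. The groups did not overlap. Ehmt2 +/+ averaged 8.73 ± 8.38 CPM (SD, n = 2) and Ehmt2 fl/fl 495 ± 44.6 CPM (SD, n = 2). In multiples of the Olfr median, Mmp7 was at 11.2 and 2.95 against 56.0 and 41.8, so that both Ehmt2 fl/fl sections were also higher on this scale. Within the first slide the ratio of CPM between the genotypes was 165 and within the second 35.8, and the ratio of the multiples over Olfr was 5.0 and 14.2.

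The gene was also found in many more spots. An Mmp7 UMI was present in 1.94% (95% Clopper-Pearson interval 1.61% to 2.31%) and 1.42% (1.17% to 1.71%) of spots in the Ehmt2 +/+ sections, and in 32.5% (31.4% to 33.7%) and 39.5% (38.3% to 40.7%) in the Ehmt2 fl/fl sections. These intervals cover counting error only. With every spot thinned to 500 UMIs, 0.160% and 0.817% of spots held one in the Ehmt2 +/+ sections and 18.8% and 21.1% in the Ehmt2 fl/fl sections. The highest count in a single spot was 2 in each Ehmt2 +/+ section and 8 and 11 in the Ehmt2 fl/fl sections. Across all 4 sections the order of Mmp7 levels was thus the same for CPM and for thinned shares. By both, Ehmt2 +/+ replicate 1 was lowest and Ehmt2 fl/fl replicate 2 highest. Without thinning, Ehmt2 +/+ replicate 2 had the lowest share of spots.

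The other 2 metalloproteinases lay nearer than Mmp7 to the level of Olfr genes, except in Ehmt2 +/+ replicate 1. There Mmp2 at 18.5 and Mmp14 at 14.5 times the Olfr median were above Mmp7 at 11.2. Mmp2 (ENSMUSG00000031740, chr8:92827290-92853421), the gelatinase of fibroblasts, had 4.66 and 11.7 CPM in the Ehmt2 +/+ sections and 36.1 and 36.7 in the Ehmt2 fl/fl sections. In multiples of the Olfr median these were 18.5, 2.36, 4.36 and 2.91, and the groups overlapped. Mmp14 (ENSMUSG00000000957, chr14:54431598-54442456), a membrane-anchored protease that activates Mmp2, had 3.65 and 5.48 against 26.8 and 21.0 CPM. It was not above the 95th percentile of Olfr genes in Ehmt2 +/+ replicate 2, where 43.0% of Olfr genes were as high or higher, nor in Ehmt2 fl/fl replicate 2, where 5.60% were. Its level in those sections is therefore not set apart from background.

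**Figure D1:**
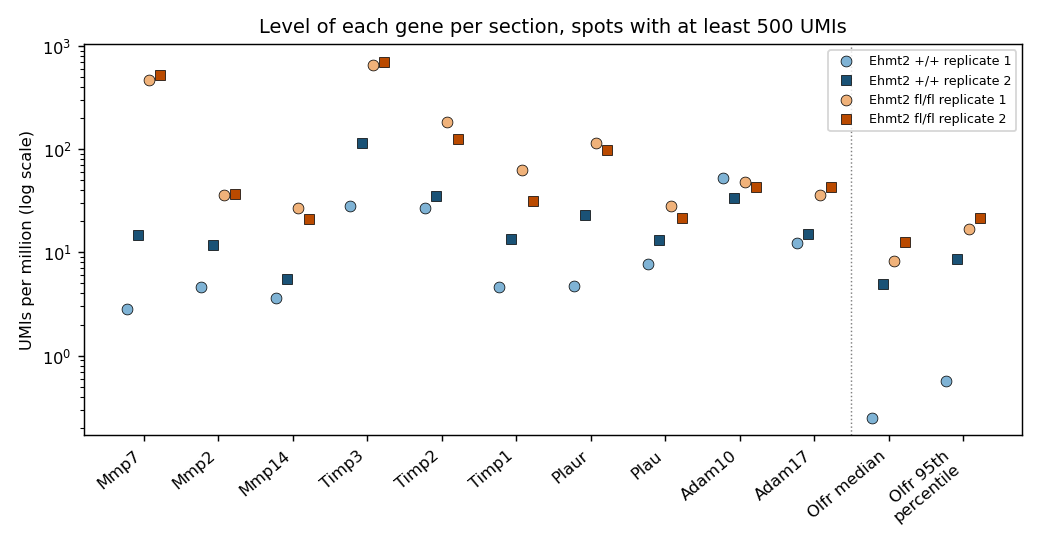
Level of each of the 10 genes in CPM (log scale) in the 4 sections, over spots with at least 500 UMIs, each point being 1 section, with the median and the 95th percentile of the Olfr genes at the right. Mmp7 lies at 2.81 and 14.7 in the Ehmt2 +/+ sections and at 463 and 526 in the Ehmt2 fl/fl sections, while the Olfr median itself runs from 0.251 to 12.6 in the same direction.

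Among the inhibitors, Timp3 (ENSMUSG00000020044, chr10:86300412-86349505), the Timp that stays bound to matrix and also blocks Adam17, was widespread in the Ehmt2 fl/fl sections. It had 28.0 and 115 CPM in the Ehmt2 +/+ sections and 651 and 700 in the Ehmt2 fl/fl sections. The groups did not overlap, and thinned shares of spots with a UMI were 1.90% and 5.74% against 26.0% and 27.2%. As multiples of the Olfr median the values were 112, 23.2, 78.6 and 55.6, so that Ehmt2 +/+ replicate 1 was then the highest section and the groups overlapped.

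Timp2 and Timp1 had smaller differences. Timp2 (ENSMUSG00000017466, chr11:118301061-118355411), which inhibits Mmp2 and with Mmp14 takes part in its activation, had 26.9 and 35.1 against 184 and 126 CPM. Thinned shares were 1.85% and 1.86% in the Ehmt2 +/+ sections and 8.79% and 6.14% in the Ehmt2 fl/fl sections. Timp1 (ENSMUSG00000001131, chrX:20870166-20874737), an inhibitor induced in inflammation and fibrosis, had 4.59 and 13.6 against 62.2 and 31.7 CPM. Neither gene kept the genotypes apart in multiples of the Olfr median, where Timp2 was at 107, 7.05, 22.3 and 10.0 and Timp1 at 18.3, 2.74, 7.51 and 2.52.

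In the urokinase system, the receptor differed more than the protease by CPM. Plaur (ENSMUSG00000046223, chr7:24460937-24475970) had 4.70 and 22.8 CPM in the Ehmt2 +/+ sections and 114 and 98.3 in the Ehmt2 fl/fl sections. Its thinned shares were 0.322% and 1.30% against 5.60% and 4.81%, again without overlap. Plau (ENSMUSG00000021822, chr14:20836662-20843388) had 7.65 and 13.1 against 28.4 and 21.4 CPM. As multiples of the Olfr median, Plaur was at 18.7, 4.59, 13.8 and 7.80 and Plau at 30.5, 2.64, 3.44 and 1.70. On that scale the groups overlapped for both genes, and Ehmt2 +/+ replicate 1 was the highest section. In Ehmt2 fl/fl replicate 2, Plau was 1.70 times the Olfr median and 4.97% of Olfr genes were as high or higher, so that it lay just past the 95th percentile there.

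Of the sheddases, Adam10 was the 1 gene of the 10 whose CPM overlapped between the genotypes. Adam10 (ENSMUSG00000054693, chr9:70678944-70780229), which cuts Notch and E-cadherin, had 52.3 and 33.4 CPM in the Ehmt2 +/+ sections and 48.0 and 43.2 in the Ehmt2 fl/fl sections. Both the highest and the lowest section were Ehmt2 +/+. As multiples of the Olfr median Adam10 was at 208 and 6.72 against 5.80 and 3.43, lower in both Ehmt2 fl/fl sections, as were 30.2% of genes. Adam17 (ENSMUSG00000052593, chr12:21323509-21373632), the sheddase of Tnf, had 12.2 and 14.9 against 36.0 and 43.1 CPM, and 48.6, 3.0, 4.35 and 3.42 times the Olfr median, where the groups overlapped.

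The comparison of the genotypes was then tested across all genes with edgeR's quasi-likelihood test on the sums per section. Of 20053 genes tested, 22 passed an adjusted p of 0.05 (0.110%), 11 higher and 11 lower in Ehmt2 fl/fl, and 1059 had an unadjusted p under 0.05. All 10 genes passed the filter on low counts. None of them was among the 22, and 2 had an unadjusted p under 0.05. The log2 fold change for Mmp7 was 4.37 with a standard error of 1.17 (edgeR, adjusted p = 0.103), which placed it at rank 26 of the 20053 genes by fold change from the highest. With slide as a block, a setting chosen after the files were seen, 13 genes passed (0.0648%), and Mmp7 was among them with 4.41 and a standard error of 0.99 (edgeR, adjusted p = 0.0155). Leaving out Ehmt2 +/+ replicate 1 or 2 gave an adjusted p of 4.16e-05 or 2.53e-11 for Mmp7 in edgeR, and leaving out either Ehmt2 fl/fl section gave 1, while the number of genes called over the 4 such fits was 379, 16653, 2 and 0. The call for Mmp7 thus depended on the model, while its fold change stayed above 4 on the log2 scale. DESeq2 gave 4.09 with an adjusted p of 9.04e-06, and library sizes without TMM factors gave 5.87 with an adjusted p of 0.0309.

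For several of the other 9 genes the direction rested on the scaling. In the edgeR fit Timp3 was at 1.71 with a standard error of 1.11 and Plaur at 1.49 with a standard error of 0.87, both with an adjusted p of 0.863, at ranks 98 and 160. The median log2 fold change was 0.25 over all genes, 0.81 over the 1104 Olfr genes tested and 0.45 over the 10 genes. Timp1 at 0.76, Mmp14 at 0.46, Mmp2 at 0.43 and Timp2 at 0.36 were thus below the Olfr median. Adam17 was at −0.49, Plau at −0.60 and Adam10 at −2.16 (standard error 0.98, unadjusted p = 0.0269, adjusted p = 0.853). Without Ehmt2 +/+ replicate 1, Adam10 was at −0.50 and Plau at −0.03, and without Ehmt2 +/+ replicate 2 they were at −3.05 and −1.15. With library sizes alone the median of all genes moved to 1.69 and that of Olfr genes to 2.0, and Adam10, Plau and Adam17 changed sign, to 0.09, 1.27 and 1.55. Relative to the median of all genes these 3 were lower under both scalings.

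**Figure D2:**
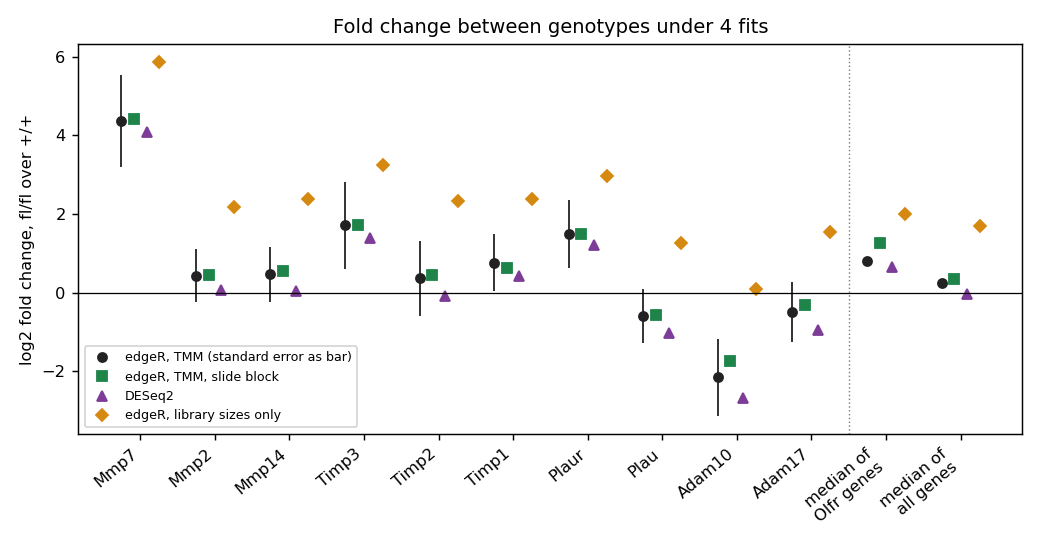
Log2 fold change of Ehmt2 fl/fl over Ehmt2 +/+ for each of the 10 genes under 4 fits, with the median of the Olfr genes and of all genes tested at the right; bars are standard errors of the edgeR fit with TMM. Mmp7 stays between 4.09 and 5.87 in these fits, whereas Adam10 moves from −2.67 to 0.09.

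Exact two-sided permutation tests over the sections, 2 against 2, cannot give a p below 0.333. That value was reached for log2 CPM in the 9 genes other than Adam10, for which p was 1, and likewise for the thinned shares of spots. Of the 17994 genes with at least 10 UMIs in every section, 92.7% were also higher in both Ehmt2 fl/fl sections by CPM. Thinned shares were computed for the 10 genes only, so their count has no background. Counts were simulated with the common dispersion of the fit (0.351) in both genotypes. There edgeR called 0 of 200 genes given a log2 change of 2 and 128 of 195 given a log2 change of 4. A gene without a call is thus not shown to be unchanged. The common dispersion was 0.0303 and 0.0304 with an Ehmt2 +/+ section left out and 0.606 with an Ehmt2 fl/fl section left out. Recovery under such unlike spreads was not simulated, so these counts are only a rough guide.

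Since the sections differed in their content of digestive enzymes, spots were compared at a like enzyme share. In spots with 20 to 50% of their UMIs from these genes, Mmp7 had 7.38 and 31.8 CPM in the Ehmt2 +/+ sections, over 109 and 2117 spots and from 2 and 51 UMIs, and 393 and 479 in the Ehmt2 fl/fl sections, over 3461 and 2979 spots. In spots over 50% it had 2.78 and 8.52 against 149 and 125 CPM, the last 2 values resting on 11 and 14 UMIs. The genotypes thus did not overlap for Mmp7 in either stratum (exact permutation test, p = 0.333, the smallest possible). Timp3, Plau and Plaur were also higher in both Ehmt2 fl/fl sections in both strata, Plau and Plaur from as few as 1 UMI. The share of all genes without overlap was not computed within strata, so these separations have no background to be read against. The same spots did not order the summed Olfr genes by genotype, with 1015, 10228, 7768 and 10946 CPM at 20 to 50%.

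Timp3 was apart by less than Mmp7 at a like enzyme share. In spots with 20 to 50% it had 314 and 210 CPM in the Ehmt2 +/+ sections and 540 and 611 in the Ehmt2 fl/fl sections. In spots over 50% it had 26.1 and 73.1 against 284 and 223 CPM, without overlap, the last values resting on 21 and 25 UMIs. In spots under 20%, Ehmt2 +/+ replicate 1 had only 6 spots and gave no test, and the other 3 sections had nearly the same level, at 860, 813 and 821 CPM. For Mmp7 these 3 sections stood at 85.3, 568 and 596. The Ehmt2 +/+ values came from 172 spots with 121 Timp3 and 12 Mmp7 UMIs, against 2967 and 3421 spots in Ehmt2 fl/fl. The summed Olfr genes were at 26694 CPM in Ehmt2 +/+ replicate 2 and at 12886 and 18820 in Ehmt2 fl/fl, so the floor differed too. At 20 to 50%, Timp2 at 188, 54.3, 152 and 96.0 and Mmp2 at 40.6, 20.6, 28.1 and 32.4 CPM overlapped between the genotypes. Adam17 at 33.2, 23.7, 26.8 and 35.7 did so as well. Plaur at 3.69 (from 1 UMI), 40.6, 100 and 93.2 did not. Neither did Mmp14 at 11.1 (from 3 UMIs), 9.98 (from 16), 22.9 and 16.7 or Timp1 at 11.1 (from 3 UMIs), 28.1, 58.6 and 31.9. Plau, at 3.69 (from 1 UMI), 15.6, 22.9 and 17.8, was likewise apart. Adam10 was lower in both Ehmt2 fl/fl sections in this stratum, at 55.4 and 42.4 against 41.0 and 39.4 CPM, with 42.4 and 41.0 close together.

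**Figure D3:**
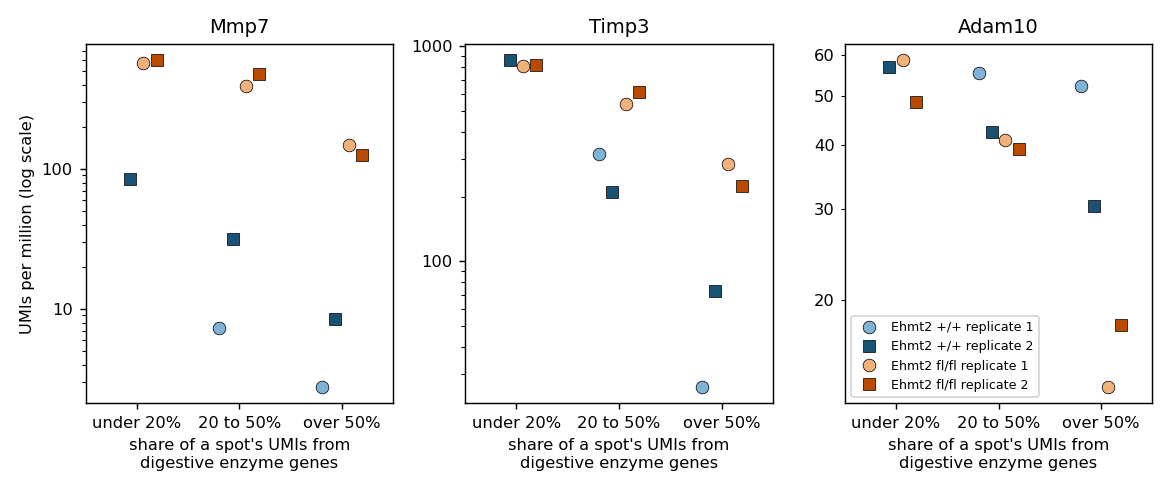
CPM (log scale, with an axis of its own for each gene) of Mmp7, Timp3 and Adam10 in spots grouped by the share of their UMIs from digestive enzyme genes, each point being 1 section with at least 50 spots in the stratum. Mmp7 is higher in the Ehmt2 fl/fl sections in every stratum shown, and Adam10 is not higher in both. Timp3 is at 860, 813 and 821 in the 3 sections shown under 20%, the first from 172 spots.

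Spots were then sorted by marker genes of cell types to see where the 10 genes lay. A spot was called rich in a list when it was in the top 10% of its section by the list's share of UMIs and held at least 3 of its UMIs. Acinar, duct, islet, fibroblast and injury response lists had at least 50 such spots in every section, and the other lists of the 13 did not. By UMIs the injury response list was mostly Clu, at 14445, 10721, 11981 and 9106 CPM of its 17312, 13080, 15399 and 12405. For the lists with enough spots, 50 pairs of gene and list were tested with exact sign-flip tests over the 4 sections. These cannot go below 0.125 (0.368 after adjustment over the 50). Of the 10 genes, 9 were lower in acinar-rich spots in all 4 sections, and 6 were when CPM was computed without the UMIs of digestive enzyme genes. Mmp7 differed there by −0.90 ± 0.23 and Timp3 by −0.96 ± 0.25 on the log2 scale (SD, n = 4), but the summed Olfr genes differed by −0.83 ± 0.51 as well.

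In fibroblast-rich spots, Timp2 and Timp3 exceeded the Olfr genes. The log2 ratio of fibroblast-rich over other spots was 1.90, 1.54, 0.64 and 0.86 for Timp2 and 2.06, 1.72, 0.35 and 0.71 for Timp3, in the order of sections above, against 0.84, 0.81, 0.22 and 0.33 for the summed Olfr genes. Both were thus above Olfr in 4 of 4 sections, by means of 0.69 and 0.66. In Ehmt2 +/+ replicate 1, for example, Timp3 had 106 CPM in the 457 fibroblast-rich spots and 25.0 in the others, and in Ehmt2 fl/fl replicate 1 it had 809 and 636. This was not particular to fibroblast-rich spots. In endothelial-rich spots, without Ehmt2 +/+ replicate 2, Timp2 had 0.60, 0.17 and 0.74 and Timp3 1.25, 0.23 and 0.37. The Olfr genes had 0.30, −0.08 and 0.02 there. In macrophage-rich spots of the same sections Timp2 had 0.21, 0.44 and 0.54 and Timp3 0.65, −0.06 and −0.31. The Olfr genes had 0.12, 0.31 and 0.21 in those spots, so that Timp2 was above them in each section and Timp3 was not. Timp1, Mmp14, Plaur and Mmp7 were also higher in fibroblast-rich spots in all 4 sections, by means of 0.75, 0.73, 0.72 and 0.59 (Plaur in 3 of 4 without enzyme UMIs), yet none of these 4 was above the Olfr ratio in every section. Mmp2 had 29 UMIs in the fibroblast-rich spots of Ehmt2 +/+ replicate 1, with a log2 ratio of 1.95, and 0 in those of Ehmt2 +/+ replicate 2, where 238 spots were rich. Plau was below the Olfr ratio in all 4 sections.

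**Figure D4:**
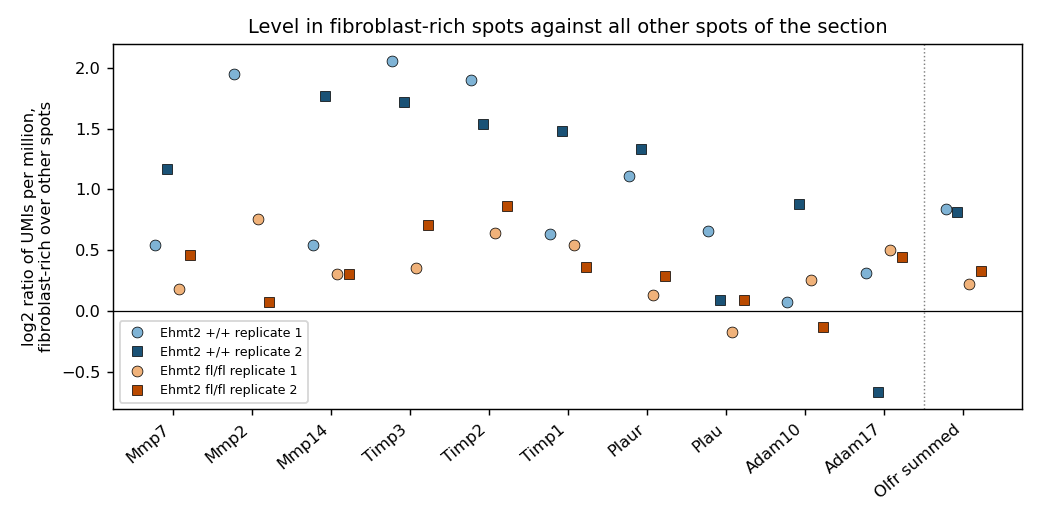
Log2 ratio of CPM in fibroblast-rich over all other spots of the same section, for the 10 genes and for the summed Olfr genes at the right, each point being 1 section; the point of Mmp2 in Ehmt2 +/+ replicate 2, with 0 UMIs in rich spots, is left out. Timp2 and Timp3 lie above the Olfr value of their own section in all 4 sections, with Timp3 from 0.35 to 2.06.

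Summed marker levels of the stroma were higher in the Ehmt2 fl/fl sections. So were 92.7% of the 17994 genes with at least 10 UMIs in every section and 10 of the 13 marker lists. The 7 fibroblast markers, 6 of them above the 95th percentile of Olfr genes in every section (above the Olfr range in what follows), summed to 428 and 556 CPM in the Ehmt2 +/+ sections and to 2037 and 1931 in the Ehmt2 fl/fl sections. The 8 macrophage markers, 6 of them above the Olfr range, summed to 80.9 and 133 against 760 and 583. In multiples of the Olfr median the fibroblast sums were 1705, 112, 246 and 153 and the macrophage sums 322, 26.8, 91.8 and 46.3, so that the genotypes overlapped for both lists. No marker of either list was at 0 in a section. Their part in the differences of the 10 genes was not tested. The 6 duct markers summed to 228, 346, 436 and 424 CPM, higher in both Ehmt2 fl/fl sections. In multiples of the Olfr median they were at 908, 69.6, 52.7 and 33.7, lower in both. Among them Krt19 was at 167, 258, 166 and 133 CPM and Krt7 at 42.7, 46.4, 193 and 202. In duct-rich spots the log2 ratio of Mmp7 was 0.11 and −0.22 in the Ehmt2 +/+ sections and 0.56 and 0.59 in the Ehmt2 fl/fl sections, with 6, 1, 82 and 142 UMIs in those spots.

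Timp3 was higher in spots with an Mmp7 UMI, by a ratio above that of the summed Olfr genes in 4 of 4 sections. The level of Timp3 in spots with an Mmp7 UMI, divided by that in spots without, was 1.40 and 2.81 in the Ehmt2 +/+ sections and 1.39 and 1.5 in the Ehmt2 fl/fl sections, while for the summed Olfr genes it was 0.944, 1.66, 0.952 and 0.879. The Ehmt2 +/+ values rested on 43 and 37 Timp3 UMIs and those of Ehmt2 fl/fl on 1867 and 3070. In the reverse direction, Mmp7 in spots with a Timp3 UMI was at ratios of 1.61, 2.53, 1.48 and 1.59. Timp3 with Timp2 gave smaller ratios, of 1.18, 1.84, 1.17 and 1.08 in spots with a Timp2 UMI.

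When 5833 genes (5834 for Mmp2) with at least 100 UMIs in every section were ranked by the lowest of their 4 ratios in spots of a given gene, Timp3 was first for Mmp7 and Mmp7 was first for Timp3. After Timp3, the genes most like Mmp7 were Cfb, complement factor B, and Plscr1, an interferon-induced scramblase, both with a lowest ratio of 1.28. After Mmp7, those most like Timp3 were Bcam, a laminin receptor, at 1.39 and Fmo2 at 1.35. For Timp2 they were Eln, the elastin gene, at 1.38, the matrix protein gene Mgp at 1.35 and Syce2 at 1.30. For the genes with few UMIs the highest lowest ratios ran from 1.17 to 1.58 and named Gng11, Dennd5b and Fbxo17 for Mmp2, Psmc4, N4bp3 and Ess2 for Timp1, Tor1aip1, Cog1 and Mfsd3 for Plau, Zfp984, Nbdy and Ddx51 for Plaur, B3galt4, Tinag and Snrpa1 for Adam10, and 1190007I07Rik, Vegfb and Asl for Adam17. These are the extremes among 5833 sparse ratios and are listed as a description. Mmp14, with 43 spots in Ehmt2 +/+ replicate 2, was not ranked.

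A wider list of pericellular proteolysis genes was set beside the 10. Of 62 such genes in the files, 58 had a higher CPM in both Ehmt2 fl/fl sections, and 26 were above the 95th percentile of Olfr genes in every section. The background of 92.7% is over the 17994 genes with at least 10 UMIs in every section, a limit that some of the 62 did not meet. Of the 60 tested with edgeR, 0 passed the adjusted threshold in either direction and 5 had an unadjusted p under 0.05. Of all 20053 genes tested, 22 and 1059 did so. With DESeq2 0 of the 60 passed as well, against 286 of the 20053. With library sizes alone 6 of the 60 did, against 400 of the 20053, of which 388 were higher in Ehmt2 fl/fl. In the edgeR fit with TMM factors the median log2 fold change of the 60 was 0.49, between that of all genes (0.25) and that of Olfr genes (0.81).

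Of the other metalloproteinases, 2 of 19 were above the Olfr range in every section. Mmp9, the gelatinase of neutrophils and macrophages, had 1.53 and 13.5 CPM in the Ehmt2 +/+ sections and 65.9 and 84.7 in the Ehmt2 fl/fl sections, with 2.02 as its log2 fold change (SE 0.80, edgeR unadjusted p = 0.0115, adjusted p = 0.691). Mmp3, stromelysin, had 4.11 and 9.18 against 25.7 and 25.2. Mmp1b was at 0 in all 4 sections and Mmp10 had under 1 CPM in each. None of the 7 other inhibitors was above the Olfr range throughout.

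In the plasminogen system, 4 of 7 genes were above the Olfr range. S100a10 and Anxa2 form a surface receptor for plasminogen. S100a10 was at 41.5, 77.4, 618 and 387 CPM and Anxa2 at 74.8, 93.8, 306 and 329, with log2 fold changes of 1.27 and −0.10. The others were Vtn, the gene of the adhesive glycoprotein vitronectin, at 15.9, 31.1, 47.3 and 40.1, and Lrp1, an endocytic receptor of protease and inhibitor complexes, at 2.08, 9.30, 30.1 and 27.8.

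Other Adams and the partners of Adam10 and Adam17 were mostly measurable. Of 7 Adams, Adam8, Adam9, Adam12, Adam15 and Adam33 were above the Olfr range, among them Adam9 at 65.6, 134, 374 and 328 CPM. Rhbdf1 and Rhbdf2, the carriers that bring Adam17 to the surface, were at 64.3, 47.3, 67.9 and 69.7 and at 19.7, 22.1, 46.4 and 51.3. Tspan5 and Tspan15, which guide Adam10, were also above it, at 28.5, 26.0, 30.9 and 42.1 and at 23.0, 41.8, 54.3 and 47.7. The 6 partners had a median log2 fold change of −1.01 in the edgeR fit with TMM factors, and 0 passed the test. With library sizes alone their median was 0.94 with 6 of 6 above 0, and without Ehmt2 +/+ replicate 1 it was −0.13, so that this direction too rested on the scaling and on 1 section. Of the proprotein convertases that activate these proteases, Furin at 54.2, 41.4, 81.3 and 61.0 and Pcsk7 at 6.08, 12.5, 26.9 and 29.9 were above the Olfr range too.

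Of 12 proteins that these sheddases release, 9 were above the Olfr range, and 11 had a higher CPM in both Ehmt2 fl/fl sections, near the background of 92.7% of genes. Cdh1, the E-cadherin of epithelium, was at 85.0, 82.2, 122 and 87.8 CPM, with 85.0 and 87.8 close to each other. Notch1 was at 27.6, 48.8, 109 and 108, and Notch2 at 3.08, 9.94, 26.2 and 24.9. The Tnf receptors Tnfrsf1a, at 77.2, 74.9, 210 and 174, and Tnfrsf1b, at 6.24, 18.9, 107 and 101, and the Il6 receptor Il6ra, at 7.10, 15.4, 50.6 and 52.9, were among the 11. Tnf itself was at 2.49, 10.3, 26.3 and 25.9, and the Egf receptor ligands Tgfa and Areg at 12.9, 17.6, 34.6 and 43.6 and at 0.936, 12.2, 20.6 and 28.0.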

How the data were processed

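Values are raw UMI counts for each gene in each spot, which the authors made with Space Ranger 2.0.1 (per the file headers) on the mm10 reference with the mouse Visium probe set, and deposited without normalization. Tissue marks could not be joined to barcodes, so spots with at least 500 UMIs were used. Features with a deprecated mark (304 of 32589) were left out. The 4 files share 13898 spot barcodes, which are positions printed on every slide and not shared cells.

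The summed counts of a section formed 1 replicate. They were tested by edgeR 4.0.16 under R 4.3.3, using TMM factors and the quasi-likelihood test on genes that filterByExpr kept at a minimum of 10 counts. The p-values were adjusted over all tested genes (Benjamini-Hochberg, 0.05). Standard errors are the fold change divided by the square root of the F statistic. A pseudocount of 0.5 was added to CPM before log2, for permutation tests and for ratios of rich over other spots. Ratios between spots with and without a UMI of a gene had no pseudocount. Shares of spots were computed exactly for spots thinned to 500 UMIs. Alternatives were DESeq2 1.42.0, no TMM factors, no digestive enzyme genes, no low-count filter, every spot with at least 1 UMI, each section left out, other thinning depths, other limits of rich spots and, added after the files were seen, slide as a block. The fit was tested on simulated data in which 200 genes changed. Python 3.11.15 was used for all else.

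The 10 genes and all lists were chosen with earlier results of these data known. Named are the 10 genes, genes of the wider list above the 95th percentile of Olfr genes in every section (others are named as examples of what lies below it and were chosen after their values were seen), the 3 genes most like each of the 10 in their spots where it had at least 50 spots in every section, sex-linked genes and Ehmt2.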

Additional observations from a re-analysis of the deposited data

Results flagged for a closer look

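In 8 of the 50 pairs of gene and marker list, both Ehmt2 +/+ sections had a log2 ratio of rich over other spots on one side of 0 and both Ehmt2 fl/fl sections on the other. These differences were not tested. No share of such pairs over all genes was computed, so the count of 8 has no background to be read against. Some of the splits were lost with enzyme UMIs left out. Plau in duct-rich spots was then at −0.26, 0.03, 0.20 and 0.42, and Adam10 in islet-rich spots at −0.08, 0.13, −0.97 and −0.47. Plau in injury response-rich spots was then above 0 in 4 of 4 sections. Mmp14 and Timp3 in duct-rich spots and Mmp14 in injury response-rich spots stayed split. In duct-rich spots Mmp14 and Plau each had 1 UMI in Ehmt2 +/+ replicate 2. In injury response-rich spots, Timp2 had ratios of 0.61 and 0.51 in Ehmt2 +/+ and −0.49 and −0.63 in Ehmt2 fl/fl, a difference of means of −1.12. The summed Olfr genes had 0.44, −0.10, −0.56 and −0.62 in the same spots, and the difference was −0.77 for Mmp14, −0.53 for Plau and −0.30 for Adam17. In duct-rich spots it was −0.95 for Mmp14, 0.62 for Timp3 and 0.43 for Plau. Timp3 there had −0.11 and −0.40 in Ehmt2 +/+, the second from 7 UMIs, and 0.44 and 0.29 in Ehmt2 fl/fl. The summed Olfr genes had 0.16, −0.40, −0.20 and −0.18 in the duct-rich spots. In islet-rich spots Adam10 had 0.08 and 0.26 against −0.94 and −0.47, a difference of −0.88. There the summed Olfr genes were split in the same way, at 0.34 and 0.15 against −0.32 and −0.12. Less the Olfr ratio, Adam10 was at −0.26, 0.11, −0.62 and −0.35 and no longer split.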

How the results depend on the processing

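The number of genes called between the genotypes was 22. It was 286 with DESeq2, 400 with library sizes without TMM factors, 13 with slide as a block (added after the files were seen), and from 0 (without Ehmt2 fl/fl replicate 2, where 18 genes had an unadjusted p under 0.05) to 16653 (without Ehmt2 +/+ replicate 2) with a section left out, where the lone section is assumed to vary like the other group. For Mmp7 the log2 fold change of 4.37 passed the threshold with DESeq2 (4.09), without TMM factors (5.87) and with the slide block (4.41), and ranged from 4.11 to 4.59 with a section left out. Other genes of the 10 passed too: Timp2 without TMM factors (2.33, adjusted p = 0.0307), Mmp14 without Ehmt2 +/+ replicate 1 (adjusted p = 0.0157), and Timp3, Plau, Plaur, Adam10 and Adam17 without Ehmt2 +/+ replicate 2. Signs turned with DESeq2 for Timp2 (−0.09) and without TMM factors for Plau (1.27), Adam10 (0.09) and Adam17 (1.55). With a section left out, Mmp14 ranged from −0.15 to 1.17, Timp1 from −0.02 to 1.27, Timp2 from −0.31 to 1.21, Adam17 from −1.18 to 0.44, Plau from −1.15 to −0.03 and Adam10 from −3.05 to −0.50. The difference in the share of spots turned without thinning for Plau (−0.603 percentage points), Adam10 (−11.1) and Adam17 (−0.505). For Adam10 it also turned with enzyme UMIs left out (−2.17) and within slide 1 (−0.177), and ran from −0.280 to 0.616 with a section left out. The cause was not tested. Of the 50 mean log2 ratios of rich over other spots, 4 changed sign with enzyme UMIs left out, namely Plau (−0.08) and Adam17 (−0.11) in fibroblast-rich and Timp2 (0.04) and Adam17 (0.02) in injury response-rich spots. With the top 5% of spots, which gave 40 of the 50 and none for the duct list, 6 did, namely Timp1 (0.12) and Timp2 (0.01) in islet-rich and Timp2 (−0.27), Timp3 (0.04), Adam10 (0.06) and Adam17 (0.07) in injury response-rich spots. With a section left out, 20 of the 50 changed sign at least once, with these ranges. In duct-rich spots these were Mmp14 −0.05 to 0.45, Timp2 −0.38 to 0.02, Timp3 −0.07 to 0.21, Plau −0.02 to 0.17, Adam10 −0.45 to 0.12 and Adam17 −0.01 to 0.23. In islet-rich spots these were Mmp14 −1.20 to 0.28, Mmp2 −0.26 to 0.18, Mmp7 −0.57 to 0.21, Timp2 −0.22 to 0.17, Plau −0.40 to 0.01 and Adam17 −0.18 to 0.05. In fibroblast-rich spots it was Mmp2, from −1.27 to 0.93. In injury response-rich spots these were Mmp14 −0.35 to 0.07, Mmp2 −0.30 to 0.04, Mmp7 −0.18 to 0.56, Timp2 −0.20 to 0.21, Timp3 −0.22 to 0.09, Plaur −0.43 to 0.21 and Adam17 −0.07 to 0.04. A ratio with the same sign in all 4 sections cannot change sign this way. The labels give no replicate numbers by which to pair sections, and the slide block is the paired fit that was run. Depth differs between sections, and genes with few UMIs, such as Mmp14, are near the Olfr level in some of them.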

Other observations

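Among the inhibitors, Timp1 was higher in injury response-rich spots, those with the largest share of Clu, Krt8, Krt18, Lcn2, Spp1 and Cd44, in 4 of 4 sections. As Clu made up most UMIs of that list, these were mainly Clu-rich spots. The log2 ratio of Timp1 to other spots was 0.31 and 0.76 for Ehmt2 +/+ replicates 1 and 2. For Ehmt2 fl/fl replicates 1 and 2 it was 0.39 and 0.27. The mean was 0.43 ± 0.22 (SD, n = 4), and the ratio was above that of the summed Olfr genes in 3 of the 4. The Ehmt2 +/+ ratios rested on only 14 and 15 Timp1 UMIs in the rich spots. In the same order, digestive enzyme genes took 61.7%, 53.3%, 29.8% and 31.8% of UMIs in the rich spots, against 66.1%, 55.1%, 22.2% and 21.1% in the others. Timp3 was above the Olfr ratio in islet-rich spots in 4 of 4 sections, by 0.76, 0.41, 0.18 and 0.35, although its own ratio was below 0 in Ehmt2 fl/fl replicate 1, at −0.14. Neither value was chosen before it was seen, and the adjusted p over the 50 pairs was 0.368 for Timp1 (exact sign-flip test).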
